A study of Homo sapiens with 11 samples.

Results

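TRiC, also called CCT, is the cytosolic chaperonin of human cells, and the mRNAs of its 8 subunits, TCP1, CCT2, CCT3, CCT4, CCT5, CCT6A, CCT7 and CCT8, were followed in HEK293T cells depleted of NAE1, UBE2M or URM1. They were taken by gene name from a gene count table of 58735 genes, and all 8 were among the 18368 genes that passed the filter on low counts. HEK293T is a line derived from human embryonic kidney. Sequenced mRNA came from a control group (n = 3 libraries) and from 3 knockdown groups, harvested 48 h after siRNA was given against NAE1 at 50 nM (siNAE1, n = 3), against UBE2M at 70 nM (siUBE2M, n = 3) or against URM1 at 60 nM (siURM1, n = 2). NAE1 is a subunit of the enzyme that activates the ubiquitin-like protein NEDD8, UBE2M is a conjugating enzyme for NEDD8, and URM1 is a ubiquitin-like protein that also serves as a sulfur carrier for tRNA. The labels name a control siRNA for the control group and the study's methods a non-targeting one, while a supplementary legend abbreviates the same libraries as HKWT, which is not explained. Doses differed between the knockdowns, and knockdown was transient and partial. All groups share 1 cell line. The labels mark the libraries of a group as biological replicates without saying how they were kept apart, and p-values measure the spread between these libraries.

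The chaperonin is a barrel of stacked rings, and each ring holds one copy of every subunit in a fixed order. Proteins that cannot fold unaided, actin and tubulin first among them, enter the cavity and are enclosed when the subunits bind and hydrolyse ATP. TCP1, CCT2, CCT4 and CCT5 lie next to each other on the side of the ring that binds ATP strongly, while CCT3, CCT6A, CCT8 and CCT7 form the other side. Cells that lose one subunit generally fail to assemble the whole particle, and several of the genes are known targets of HSF1, the transcription factor of the heat shock response.

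Sequences around RefSeq start sites of 4 subunit genes are shown because these genes span the responses measured. The CCT8 and CCT3 mRNAs rose strongly in every knockdown, and CCT7 was called in siNAE1 cells alone. TCP1 holds a match to a short heat shock pattern, as do CCT2 and CCT4. RefSeq start-site windows of 300 bases (250 before and 50 after a start, assembly GRCh38.p14, 5′ to 3′ on the gene's strand) matched 7 of the 8 genes by symbol, in 9 windows, and CCT6A had no entry. The windows of CCT3, CCT5 and CCT7 and 1 of those of CCT2 lay wholly inside the listed gene spans. For CCT3, CCT5 and CCT7, sequence upstream of the span was therefore not searched. Capitals mark matches to any of the 7 motifs searched on both strands. The windows were chr21:29073599-29073898 for CCT8 (minus strand), chr1:156338243-156338542 for CCT3 (minus strand), chr2:73234058-73234357 for CCT7 (plus strand) and chr6:159789553-159789852 for TCP1 (minus strand).
CCT8: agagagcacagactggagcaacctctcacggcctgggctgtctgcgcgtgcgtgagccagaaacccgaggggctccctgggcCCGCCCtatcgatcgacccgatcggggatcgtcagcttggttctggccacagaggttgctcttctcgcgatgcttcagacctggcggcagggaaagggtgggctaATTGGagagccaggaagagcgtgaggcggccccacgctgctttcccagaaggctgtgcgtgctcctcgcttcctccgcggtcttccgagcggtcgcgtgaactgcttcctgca
CCT3: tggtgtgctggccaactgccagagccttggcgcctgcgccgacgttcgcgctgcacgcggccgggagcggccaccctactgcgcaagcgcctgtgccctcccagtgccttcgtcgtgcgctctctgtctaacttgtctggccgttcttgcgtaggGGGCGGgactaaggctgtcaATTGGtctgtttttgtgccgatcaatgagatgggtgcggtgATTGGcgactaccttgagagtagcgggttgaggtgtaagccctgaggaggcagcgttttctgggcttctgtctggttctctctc
CCT7: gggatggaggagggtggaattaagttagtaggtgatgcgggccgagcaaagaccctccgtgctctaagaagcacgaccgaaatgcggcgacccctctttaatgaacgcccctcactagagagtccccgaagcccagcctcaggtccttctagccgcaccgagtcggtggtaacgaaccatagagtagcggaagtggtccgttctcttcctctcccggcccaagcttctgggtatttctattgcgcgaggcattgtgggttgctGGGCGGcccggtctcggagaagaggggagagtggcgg
TCP1: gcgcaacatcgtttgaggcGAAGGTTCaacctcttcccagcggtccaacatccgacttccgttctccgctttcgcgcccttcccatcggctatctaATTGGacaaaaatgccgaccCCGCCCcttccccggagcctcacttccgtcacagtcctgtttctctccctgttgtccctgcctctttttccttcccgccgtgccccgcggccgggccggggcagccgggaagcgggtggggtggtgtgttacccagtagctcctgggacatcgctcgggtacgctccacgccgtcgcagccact

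The CCT8 window held 1 CCAAT box and 1 GC box (GGGCGG or its reverse complement), and the CCT3 window held 2 CCAAT boxes close to the start and 1 GC box. CCT7 held a GC box and no CCAAT box in its window. A CCAAT box was found in 4 of the 9 windows, 1 each of CCT2, CCT3, CCT8 and TCP1, and in 34.6% of the 35116 windows of all genes. A GC box was found in 6 of the 9 windows, those of CCT3, CCT7, CCT8 and TCP1 and both of CCT2, and in 45.0% of all windows. The pattern GAANNTTC, an inverted pair of heat shock element units, was present in TCP1, starting 231 bases before the start site. It was also in 1 of the CCT2 windows, 89 bases before that window's start site and inside the listed gene span. Of all windows, 6.77% hold it. The form TTCNNGAA was present in a CCT4 window and in 7.74% of all windows. An ETS core (CCGGAAG) was found for CCT2 only among the matched subunits, against 10.3% of all windows. The E-box CACGTG (7.26% of all windows) and the element TGATGNAA, known for ATF4 binding (3.62%), were found in none of the 9 windows. The median GC content of all windows was 58.7%, and the 4 windows shown had 64.3% (CCT8), 61.3% (CCT3), 59.3% (CCT7) and 63.3% (TCP1). A match is a description of letters, and occupancy by any factor was not measured.

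The depletions were checked first. NAE1 fell from 102 ± 5.89 CPM in control cells to 39.8 ± 4.04 in siNAE1 cells (CPM, read counts scaled to a common library size by TMM, SD, n = 3 each). UBE2M fell from 265 ± 2.68 to 16.8 ± 2.02 CPM in siUBE2M cells (n = 3), and URM1 from 53.6 ± 2.32 to 15.3 ± 0.248 CPM in siURM1 cells (n = 2). Totals per library lay between 11733163 and 16321391 counts. All 6 markers expected in this line (KRT8, KRT18, VIM, NEFM, NEFL and PAX2) passed the filter. Of these 4, 2 and 5 were called higher in siNAE1, siUBE2M and siURM1 cells (27.6%, 22.7% and 20.8% of all tested genes), and 0, 2 and 0 lower (27.1%, 22.6% and 20.8%). Of 10 markers of liver, blood and fibroblasts, COL1A1 passed, at 218 to 448 counts, while the other 9 had at most 9 counts in any library and CD3E had 0 in all. COL1A1 was higher in siUBE2M cells (log2 fold change 0.39, adjusted p = 0.0036, edgeR). Its part in the results was not tested. The subunits had 3990 to 14409 counts per library, and the biological coefficient of variation between libraries was 7.06% over all genes. Some subunits varied less within a group, as did CCT5 in siURM1 libraries (358 and 355 CPM). Their spread was not compared with counting error.

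TRiC mRNA was higher as a whole in each knockdown, by unequal amounts for its subunits. Summed over the 8 genes, it made up 2938, 3015 and 3136 CPM in the control libraries, 4541, 4706 and 4950 in siNAE1, 3819, 3977 and 4196 in siUBE2M, and 3934 and 3990 in siURM1. No knockdown library reached down to the control range, and siUBE2M and siURM1 overlapped. The sums were 156% of control in siNAE1 cells, 132% in siUBE2M cells and 131% in siURM1 cells, from a control mean of 3030 ± 99.8 CPM (SD, n = 3). In bulk RNA, a change in the number of expressing cells and a change in RNA per cell cannot be told apart.

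Against control, all 8 subunits were called higher in siNAE1 cells (adjusted p under 0.05, quasi-likelihood test of edgeR, Benjamini-Hochberg over all tested genes), where 27.6% of all tested genes were called higher and 27.1% lower. In siUBE2M cells 6 were called higher, beside 22.7% of all genes higher and 22.6% lower, and in siURM1 cells 6 were called higher, beside 20.8% in each direction. No subunit was called lower in any knockdown. The subunits not called were CCT2 and CCT7, in both siUBE2M and siURM1 cells. The median log2 fold change of the subunits was 0.71 in siNAE1, 0.34 in siUBE2M and 0.28 in siURM1 cells, and that of all tested genes was 0.00, 0.01 and -0.02. When a change of 1 or more on the log2 scale was also required, 0, 1 and 0 subunits remained (CCT8 in siUBE2M cells), against 13.9%, 7.11% and 7.62% of all genes. The 3 comparisons share the control libraries, so they are not independent of each other.

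In single libraries, every siNAE1 library lay above every control library for 8 of 8 subunits, every siUBE2M library for 6 and every siURM1 library for 7. Of all tested genes, 29.8% lay wholly above control in siNAE1 cells and 29.7% wholly below. The shares were 26.8% and 26.9% in siUBE2M cells and 29.8% and 31.0% in siURM1 cells, where 2 libraries stand against 3. The overlapping cases were CCT2 and CCT7 in siUBE2M cells and CCT2 in siURM1 cells.

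**Figure D1:**
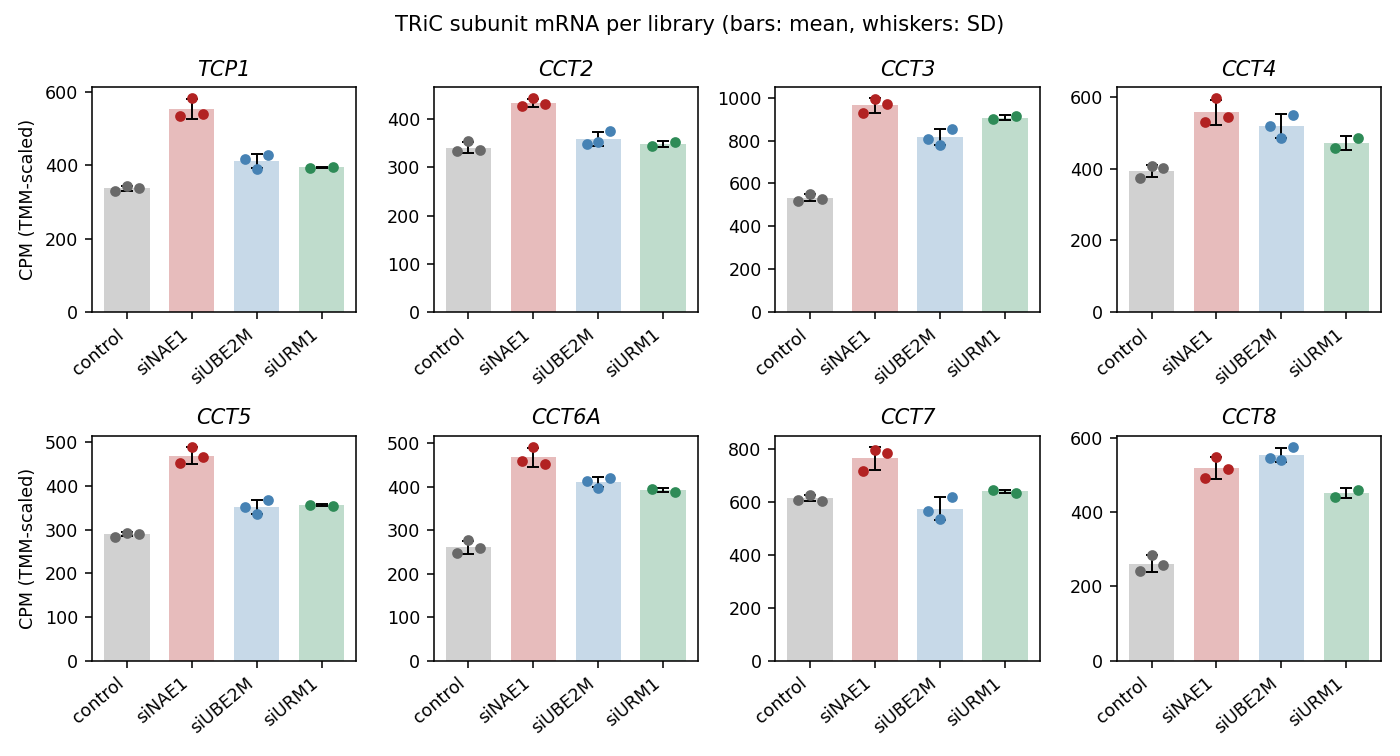
CPM (TMM-scaled, vertical axes from 0) of the 8 TRiC subunit mRNAs in each library, with control in grey and the knockdowns siNAE1 (red), siUBE2M (blue) and siURM1 (green). Points are libraries, bars are means and whiskers are SD (n = 3, 3, 3 and 2). CCT8 lies between 443 and 578 CPM in knockdown libraries against 241 to 285 in control, while CCT7 overlaps control in siUBE2M.

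TCP1 encodes the subunit α, the founding member of the family (ENSG00000120438, GRCh38 chromosome 6, 159778498 to 159789749, minus strand). It had 330.3, 342 and 339 CPM in the control libraries, 535, 583 and 539.9 in siNAE1, 417, 389 and 428 in siUBE2M and 392 and 396 in siURM1. Every knockdown library lay above control, and the siNAE1 libraries lay above all others. The log2 fold change was 0.71 (95% interval 0.60 to 0.83, adjusted p = 3.4e-12) in siNAE1 cells, 0.29 (95% interval 0.17 to 0.40, adjusted p = 1.1e-04) in siUBE2M cells and 0.22 (95% interval 0.09 to 0.35, adjusted p = 0.0047) in siURM1 cells (edgeR). Scaled by total counts alone, the siURM1 value was 0.13 and not called (adjusted p = 0.058, edgeR). TCP1 shares 454 exon bases with ACAT2 on the opposite strand in GENCODE v44. ACAT2 had 592 to 1317 counts per library beside 5367 to 8340 for TCP1. The libraries were made strand-specific with dUTP, per the study's methods. No source used here says whether the counting used the strand, and if it did not, the shared bases could distort either count.

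CCT2 encodes the subunit β (ENSG00000166226, chromosome 12, 69585334 to 69601570, plus strand). The control libraries had 333, 354 and 335 CPM, the siNAE1 libraries 428, 444 and 430.2, the siUBE2M libraries 349, 352 and 374 and the siURM1 libraries 344 and 353. Only siNAE1 cells stood clear of control. The log2 fold change there was 0.35 (95% interval 0.24 to 0.46, adjusted p = 2.9e-06, edgeR). In siUBE2M and siURM1 cells it was 0.07 (95% interval -0.04 to 0.19, adjusted p = 0.29) and 0.03 (95% interval -0.09 to 0.16, adjusted p = 0.70), neither called (edgeR), and these intervals leave out rises of more than 0.19 and 0.16.

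CCT4 encodes the subunit δ (ENSG00000115484, chromosome 2, 61868089 to 61888804, minus strand). It had 374, 407 and 401 CPM in control, 531, 597 and 544 in siNAE1, 519, 485 and 551 in siUBE2M and 458 and 486 in siURM1 libraries. All knockdown libraries lay above control, and siNAE1 overlapped with siUBE2M. Its log2 fold changes were 0.50 (95% interval 0.38 to 0.63, adjusted p = 2.5e-08), 0.40 (95% interval 0.27 to 0.52, adjusted p = 2.9e-06) and 0.26 (95% interval 0.12 to 0.40, adjusted p = 0.0022) in that order (edgeR). An antisense gene, AC107081.2, shares 275 exon bases with CCT4 and had 7 to 18 counts.

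CCT5 encodes the subunit ε, in which mutations are known from a hereditary sensory neuropathy (ENSG00000150753, chromosome 5, 10249921 to 10266412, plus strand). Control libraries had 284, 293 and 291 CPM, siNAE1 452, 491 and 466, siUBE2M 353, 335 and 369 and siURM1 358 and 355. The siNAE1 libraries lay above the other knockdowns, which overlapped each other and lay above control. The log2 fold changes were 0.70 (95% interval 0.58 to 0.81, adjusted p = 5.1e-12), 0.28 (95% interval 0.17 to 0.40, adjusted p = 1.2e-04) and 0.30 (95% interval 0.17 to 0.43, adjusted p = 2.3e-04, edgeR). Of the 8 subunits, CCT5 followed the mean of all most closely over the 11 libraries (Pearson's r = 0.987 of log2 CPM with the mean of z-scores, in which CCT5 itself is one of the members). Its antisense neighbour AC012640.4 shares 1734 exon bases and had 0 to 5 counts. If the counting did not use the strand, these bases could distort the CCT5 count too.

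CCT3 encodes the subunit γ (ENSG00000163468, chromosome 1, 156308968 to 156367873, minus strand) and rose in every knockdown. It had 519.9, 552 and 527 CPM in control, 927, 995 and 970.4 in siNAE1, 809, 781 and 855 in siUBE2M and 899 and 914 in siURM1 libraries. The groups stood well clear of control, and siURM1 libraries lay between 899 and 914 CPM, above those of siUBE2M. The log2 fold changes were 0.86 (95% interval 0.74 to 0.97, adjusted p = 3.5e-14), 0.61 (95% interval 0.50 to 0.73, adjusted p = 1.4e-10) and 0.77 (95% interval 0.64 to 0.89, adjusted p = 1.1e-11, edgeR).

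CCT6A encodes the subunit ζ of most tissues, and CCT6B its testis form (CCT6A: ENSG00000146731, chromosome 7, 56051630 to 56063989, plus strand). CCT6A had 247, 278 and 258 CPM in control, 459.5, 493 and 452 in siNAE1, 414, 398 and 421 in siUBE2M and 395 and 389 in siURM1 libraries. All knockdown libraries exceeded control. Log2 fold changes were 0.84 (95% interval 0.72 to 0.96, adjusted p = 1.3e-13), 0.66 (95% interval 0.54 to 0.78, adjusted p = 8.6e-11) and 0.59 (95% interval 0.45 to 0.72, adjusted p = 8.0e-09, edgeR). CCT6B moved the other way from a low level, with 2 to 91 counts per library, from 4.78 ± 0.619 CPM in control to 0.516 ± 0.368 in siNAE1, 1.15 ± 0.311 in siUBE2M and 2.09 ± 0.310 in siURM1 cells (SD). Its log2 fold changes were -3.13 (95% interval -3.87 to -2.38, adjusted p = 9.5e-09), -2.04 (95% interval -2.68 to -1.40, adjusted p = 2.7e-06) and -1.19 (95% interval -1.86 to -0.52, adjusted p = 0.0039, edgeR). In control cells CCT6A had 66.3 ± 4.23 FPKM (fragments scaled by gene length and library depth) and CCT6B 1.09, so CCT6A was far above CCT6B per length.

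CCT8 encodes the subunit θ (ENSG00000156261, chromosome 21, 29055805 to 29073797, minus strand) and had the largest log2 fold change of the 8 in each knockdown, in siURM1 cells by less than the standard error over CCT3. Its CPM was 241, 285 and 258 in control, 492, 551 and 518 in siNAE1, 547, 542 and 578 in siUBE2M and 443 and 462 in siURM1 libraries. Its mRNA was thus 199%, 212% and 173% of the control mean. The log2 fold changes were 0.99 (95% interval 0.86 to 1.12, adjusted p = 1.4e-14), 1.09 (95% interval 0.96 to 1.22, adjusted p = 4.0e-15) and 0.79 (95% interval 0.65 to 0.93, adjusted p = 5.8e-11, edgeR). The value in siNAE1 cells lies just under the fold threshold of 1 and that in siUBE2M cells just above it, and both intervals include 1. When each library was left out in turn, the siURM1 value of CCT8 went as low as 0.743. That of CCT3 stayed at 0.758 or more, so the first place of CCT8 there can turn with a single library.

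CCT7 encodes the subunit η (ENSG00000135624, chromosome 2, 73233420 to 73253021, plus strand) and was, with CCT2, the least responsive of the 8. It had 609, 626 and 605 CPM in control, 717, 796 and 786 in siNAE1, 568, 537 and 620.5 in siUBE2M and 644 and 635 in siURM1 libraries. It rose in siNAE1 cells, with a log2 fold change of 0.32 (95% interval 0.20 to 0.44, adjusted p = 2.8e-05, edgeR). In siUBE2M cells the value was -0.09 (95% interval -0.21 to 0.03, adjusted p = 0.21) and in siURM1 cells 0.06 (95% interval -0.07 to 0.20, adjusted p = 0.49), neither called (edgeR). Without siUBE2M replicate 3, the highest of its group, the siUBE2M value was -0.15 and called lower (adjusted p = 0.043, edgeR), as it was with scaling by total counts alone (-0.15, adjusted p = 0.018, edgeR).

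**Figure D2:**
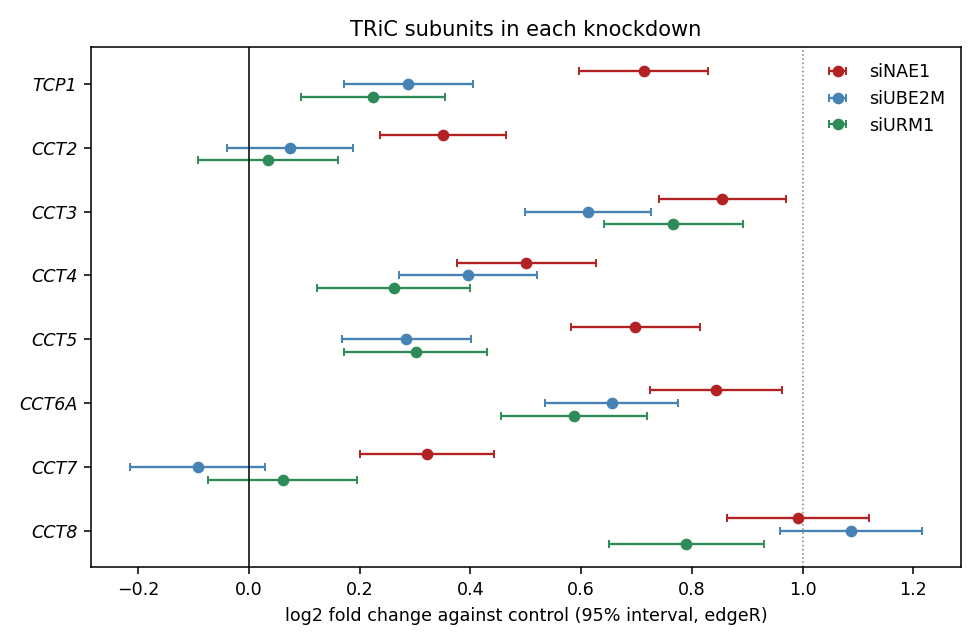
Log2 fold changes against control (horizontal axis) of each TRiC subunit (vertical axis) in siNAE1 (red), siUBE2M (blue) and siURM1 (green) cells. Points are edgeR estimates, bars are 95% intervals and the dotted line marks a log2 fold change of 1. CCT8 is farthest right in each knockdown (0.99, 1.09 and 0.79), and the intervals of CCT2 and CCT7 include 0 in siUBE2M and siURM1 but not in siNAE1.

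The knockdowns were then compared with each other, in the same fit, to whose scaling and spread the control libraries contribute. Most subunits were called higher in siNAE1 cells. Against siUBE2M, 6 of 8 were called higher in siNAE1 (22.7% of all genes higher, 21.6% lower), with a median of 0.26. The largest differences were 0.43 (95% interval 0.31 to 0.54, adjusted p = 2.6e-07) for TCP1, 0.41 (95% interval 0.29 to 0.54, adjusted p = 8.9e-07) for CCT7 and 0.41 (95% interval 0.30 to 0.53, adjusted p = 3.9e-07) for CCT5 (edgeR). CCT4 and CCT8 were not called, at 0.11 (95% interval -0.02 to 0.23, adjusted p = 0.16) and -0.10 (95% interval -0.22 to 0.03, adjusted p = 0.22, edgeR). The call of CCT6A (0.19) was lost without siNAE1 replicate 2 (0.15, adjusted p = 0.069, edgeR) and without siUBE2M replicate 2 (0.16, adjusted p = 0.066, edgeR), and with scaling by total counts alone (0.12, adjusted p = 0.064, edgeR), which also called CCT8 lower (-0.16, adjusted p = 0.019, edgeR).

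Against siURM1, 7 of 8 were called higher in siNAE1 (19.5% of all genes higher, 19.1% lower), again with a median of 0.26. TCP1 differed most, by 0.49 (95% interval 0.36 to 0.62, adjusted p = 2.8e-07), and CCT3 was not called, at 0.09 (95% interval -0.04 to 0.22, adjusted p = 0.28, edgeR). The call of CCT8 (0.20, adjusted p = 0.021) was lost in limma fits of FPKM, without siNAE1 replicate 2 (0.16, adjusted p = 0.11) and without siURM1 replicate 1 (0.17, adjusted p = 0.17) or 2 (0.23, adjusted p = 0.051, edgeR). That of CCT4 (0.24) was lost without siURM1 replicate 1 (0.20, adjusted p = 0.097, edgeR). Between siUBE2M and siURM1, 1 subunit was called, beside 16.7% of all genes higher and 18.3% lower in siUBE2M. It was CCT8, at 0.30 (95% interval 0.16 to 0.44, adjusted p = 0.0011, edgeR). CCT3 was lower in siUBE2M by a value close to the threshold, -0.15 (95% interval -0.28 to -0.03, adjusted p = 0.053), and CCT7 was at -0.15 (95% interval -0.29 to -0.02, adjusted p = 0.071, edgeR). Without siUBE2M replicate 3 both were called (-0.19, adjusted p = 0.019, and -0.21, adjusted p = 0.011, edgeR), and CCT3 also without siNAE1 replicate 1 (-0.15, adjusted p = 0.049) or 3 (-0.16, adjusted p = 0.045, edgeR), which enter this comparison through the shared scaling and spread. DESeq2 called CCT3 as well (-0.16, adjusted p = 0.023), and scaling by total counts alone called CCT4 (0.17, adjusted p = 0.036, edgeR).

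Levels between subunits were compared per length, in FPKM as the authors computed them. The deposited gene lengths run from 2830 bases for CCT4 to 5839 for CCT5. The order, the spread and the shares of the subunits depend on these lengths. In control CPM, without length, CCT5 (289) lay above CCT6A (261.0) and CCT8 (261.5). Each ring contains every subunit once, but the mRNAs were not at equal levels in any library. In control cells the order was CCT7 (169 ± 3.74 FPKM, SD, n = 3), CCT4 (138 ± 6.82), CCT3 (132 ± 4.76), CCT2 (78.1 ± 2.95), CCT8 (77.6 ± 6.97), TCP1 (67.8 ± 1.60), CCT6A (66.3 ± 4.23) and CCT5 (49.1 ± 1.04). CCT4 and CCT3 overlapped between libraries, as did CCT2 and CCT8, and TCP1 and CCT6A, while the other neighbours in this order did not.

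CCT3 took the first place in every knockdown, at 237 ± 8.32 FPKM in siNAE1 (SD, n = 3), 200.4 ± 9.92 in siUBE2M (n = 3) and 224 ± 2.74 in siURM1 (n = 2). In siNAE1 cells it was followed by CCT7 at 211 ± 11.8 and CCT4 at 194 ± 12.1, which overlapped, and then by CCT8 at 154 ± 8.66, CCT6A at 118 ± 5.41, TCP1 at 111 ± 5.24, CCT2 at 99.0 ± 1.87 and CCT5 at 79.3 ± 3.26 FPKM. Among these lower places, CCT6A and TCP1 overlapped. In siUBE2M cells CCT7 fell to the fourth place, at 158 ± 12.2 FPKM behind CCT4 (181 ± 12.2) and CCT8 (164 ± 6.31), and neighbours among these first 4 overlapped. Below them came CCT6A at 104 ± 3.49, TCP1 at 82.5 ± 4.34, CCT2 at 81.9 ± 3.46 and CCT5 at 59.6 ± 3.07 FPKM, with an overlap of TCP1 and CCT2. In siURM1 cells CCT7 was at 177 ± 1.72, CCT4 at 166 ± 6.96, CCT8 at 134 ± 4.06, CCT6A at 99.7 ± 1.10, CCT2 at 80.0 ± 1.42, TCP1 at 79.3 ± 0.571 and CCT5 at 60.6 ± 0.258 FPKM, and only CCT2 and TCP1 overlapped. CCT5, the longest by the deposited lengths, was lowest per length in all 11 libraries.

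The spread between the highest and the lowest subunit was 3.45-fold ± 0.0626 in control libraries, 2.99-fold ± 0.0413 in siNAE1, 3.36-fold ± 0.0276 in siUBE2M (SD, n = 3 each) and 3.70-fold ± 0.0608 in siURM1 (n = 2). The coefficient of variation over the 8 subunits was 44.3%, 38.4%, 41.1% and 45.0% in the same order. The ratio lay below the control range of 3.38 to 3.49 in all siNAE1 libraries (2.95 to 3.03) and above it in the siURM1 libraries (3.65 and 3.74). The coefficient of variation lay below that of control (43.4% to 45.3%) in all siNAE1 (37.4% to 39.6%) and all siUBE2M libraries (40.8% to 41.7%).

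As a share of the summed FPKM, CCT7 went from 21.8% ± 0.487 in control to 17.5% ± 0.498 in siNAE1, 15.3% ± 0.379 in siUBE2M and 17.3% ± 0.384 in siURM1 cells. CCT8 went from 9.97% ± 0.498 to 12.8% ± 0.159, 15.9% ± 0.285 and 13.2% ± 0.234. CCT3 went from 16.9% ± 0.128 to 19.7% ± 0.268, 19.4% ± 0.0643 and 22.0% ± 0.00339. CCT2 went from 10.0% ± 0.106 to 8.24% ± 0.221, 7.94% ± 0.198 and 7.85% ± 0.0413. Knockdown and control libraries did not overlap in any of these shares. TCP1 had 8.72% in control, a higher share in siNAE1 (9.20%), and lower shares in siUBE2M (8.00%) and siURM1 (7.77%). The ratio of CCT8 to CCT7, a pair chosen after their values were seen, was 0.425 to 0.489 in control libraries, 0.708 to 0.743 in siNAE1, 1.00 to 1.08 in siUBE2M and 0.738 to 0.781 in siURM1. A share or a ratio shows unequal change, and not that either gene was unchanged.

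**Figure D3:**
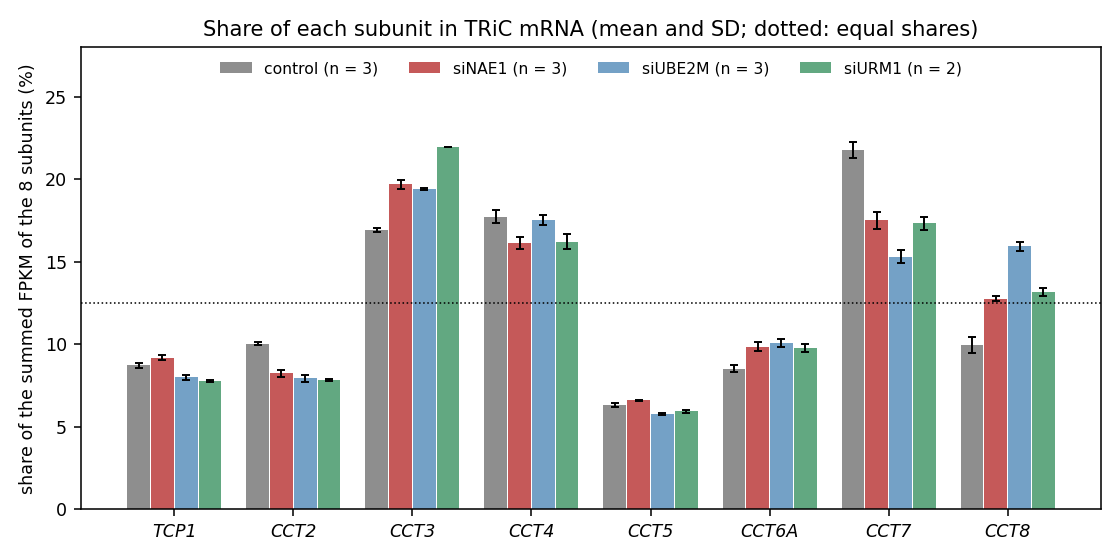
Share (percent, vertical axis from 0) of each TRiC subunit in the summed FPKM of the 8 subunits, for control (grey, n = 3), siNAE1 (red, n = 3), siUBE2M (blue, n = 3) and siURM1 (green, n = 2). Bars are means, whiskers are SD and the dotted line marks equal shares. CCT7 has the largest share in control (21.8%) and CCT3 in each knockdown (19.7%, 19.4% and 22.0%), while CCT5 is lowest throughout.

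Over the 11 libraries, the subunits followed their common mean to different degrees. Pearson's r with the mean z-score of log2 CPM was 0.987 for CCT5, 0.976 for TCP1, 0.951 for CCT6A, 0.95 for CCT4, 0.923 for CCT3, 0.899 for CCT2, 0.838 for CCT8 and 0.716 for CCT7. These are descriptions over libraries in 4 groups, and each subunit is part of the mean. Among 10460 other genes that averaged 10 CPM or more, those most like the mean of the subunits were HSPD1 (r = 0.998), MORF4L1 (0.992), NBPF20 (0.992), LDHA (0.990) and DNAJA1 (0.990). HSPD1 encodes the mitochondrial chaperonin HSP60, and DNAJA1 a cytosolic co-chaperone of HSP70. Log2 fold changes of HSPD1 were 0.82, 0.44 and 0.40 in siNAE1, siUBE2M and siURM1 cells, close to the subunit medians, and those of DNAJA1 were 1.43, 0.80 and 0.67. LDHA, a lactate dehydrogenase subunit, changed by 1.01, 0.45 and 0.49, MORF4L1, a chromatin protein, by 0.82, 0.47 and 0.41, and NBPF20 by 1.46, 0.87 and 0.74. NBPF20 belongs to a family of near-identical copies, so its counts are uncertain.

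Genes with roles beside TRiC were grouped into lists, whose counts stand beside the shares of all tested genes called higher and lower, 27.6% and 27.1% in siNAE1, 22.7% and 22.6% in siUBE2M, and 20.8% each in siURM1 cells. Actins and tubulins, its main clients, were listed together with the actin-related proteins ACTR2 and ACTR3 and were mostly called higher. Of 16 tested, 15 rose and 1 fell in siNAE1 cells, 13 rose and 0 fell in siUBE2M, and 10 rose and 1 fell in siURM1 cells, with median log2 fold changes of 1.06, 0.67 and 0.56 beside about 0 for all genes. ACTG1, the cytoplasmic γ-actin, changed by 1.40, 1.46 and 1.42. TUBB, a β-tubulin, changed by 1.05, 0.99 and 1.01, and TUBB4B, another, by 1.41, 1.10 and 0.61. TUBA1A, an α-tubulin, changed by 1.48, 0.47 and 0.00, of which the siURM1 value was not called, and ACTB by 1.18, 0.84 and 0.88. The single falls, named after their values were seen, were those of ACTR2 in siNAE1 cells (-0.31) and of the γ-tubulin TUBG1 in siURM1 cells (-0.21). TUBB3, a neuronal tubulin that the naming rule also brings up (1.91 in siNAE1 cells), had 1 to 13 counts per library. Tubulins and actins are close in sequence and have pseudogenes, so the division of fragments among them is uncertain.

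Prefoldin hands unfolded actin and tubulin to TRiC. Of its 6 subunits, 3 were called higher and 0 lower in siNAE1, 3 higher and 1 lower in siUBE2M, and 2 higher and 1 lower in siURM1 cells, beside 27.6%, 22.7% and 20.8% of all genes higher. PFDN5 changed by 1.05, 0.93 and 1.01 and PFDN6 by 0.56, 0.43 and 0.56. VBP1, also a prefoldin subunit, was at 0.64, 0.19 and 0.16, of which the siURM1 value was not called, and PFDN4 was at -0.12, -0.35 and -1.14, of which only the siUBE2M and siURM1 values were called. Among 7 genes of the prefoldin-like and R2TP complexes, 2 were called higher and 0 lower in siNAE1, 1 and 3 in siUBE2M, and 1 and 2 in siURM1 cells. RUVBL1, an ATPase of R2TP, was at 0.09, -0.58 and -0.39, of which the siNAE1 value was not called, and PDRG1, a prefoldin-like protein, at 0.42, -0.23 and -0.01, of which the siURM1 value was not called.

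Phosducin-like proteins bind TRiC and modulate its folding of clients. Of the 3 tested of 4 listed, TXNDC9 was lower in every knockdown, from 40.3 ± 2.74 CPM in control to 21.4 ± 3.23, 17.9 ± 1.16 and 20.0 ± 3.61 CPM (SD), with log2 fold changes of -0.91, -1.17 and -1.01. Its relatives PDCL and PDCL3 were called higher in siURM1 cells (0.26 and 0.40). Their values were -0.12 and -0.24 in siNAE1 and -0.21 and -0.02 in siUBE2M cells, none called. Tubulin cofactors act after TRiC to pair α- and β-tubulin. Of 7, 3 were called higher and 1 lower in siNAE1, 2 and 3 in siUBE2M, and 2 and 1 in siURM1 cells, beside the shares of all genes given above. TBCD changed by 0.97, 0.56 and 0.63 and TBCEL, which destabilises tubulin, by -0.91, -0.34 and -0.41, all called. ARL2, a small GTPase that binds TBCD, was at 0.20, -0.59 and -0.15, of which the siURM1 value was not called.

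Other known clients, among them WD40-repeat proteins, did not share one direction. Of 22 tested, 8 were called higher and 7 lower in siNAE1, 6 and 2 in siUBE2M, and 5 and 6 in siURM1 cells, and the medians were 0.03, 0.02 and -0.02. WRAP53, a telomerase component folded by TRiC, was at 0.78, 0.93 and 0.11, of which the siURM1 value was not called. PPP2R2A, a phosphatase subunit, was called lower in every knockdown (-0.57, -0.67 and -0.61). PPP4C, another phosphatase subunit, was called higher in every knockdown (0.69, 0.64 and 0.47). GNB2, a β subunit of G proteins, was at 0.70, 0.11 and 0.43, not called in siUBE2M, and GNB4, another, at 0.75, 0.03 and -0.08, called in siNAE1 only.

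Chaperonin relatives outside TRiC were divided. Of 6 tested of 7 listed, 2 were called higher in each knockdown, HSPD1 and its co-chaperonin HSPE1 (0.79, 0.66 and 1.14), while 3, 2 and 3 were called lower. The lower ones were CCT6B, BBS10 (-0.33, -0.53 and -0.59) and, in siNAE1 and siURM1 cells, BBS12 (-0.80 and -0.61). BBS10 and BBS12 are chaperonin-like proteins that act in ciliary protein assembly. A further list of 20 genes held cytosolic chaperones, co-chaperones and their regulator HSF1. Of these, 18 were called higher and 0 lower in siNAE1, 14 and 3 in siUBE2M, and 13 and 2 in siURM1 cells. The 3 lower in siUBE2M were HSPA4 (-0.34), HSPA4L (-0.35) and HSF1 (-0.23), and the 2 lower in siURM1 were CHORDC1 (-0.71) and HSPA4 (-0.18), all named after their values were seen. The list's medians of 0.81, 0.36 and 0.32 lay near those of the TRiC subunits (0.71, 0.34 and 0.28). The largest changes in this list were those of the HSP70 genes HSPA8, HSPA1A and HSPA1B.

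**Figure D4:**
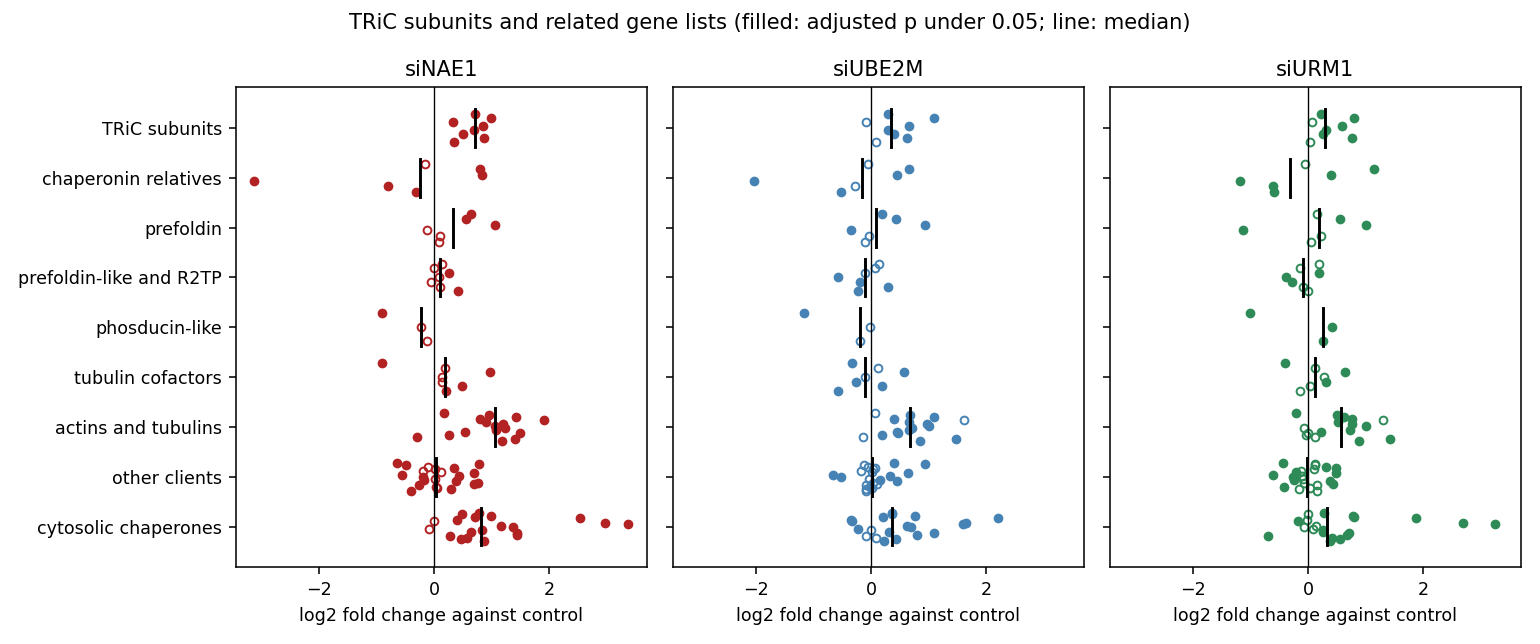
Log2 fold changes against control (horizontal axes) of TRiC subunits and 8 lists of related genes (rows) in siNAE1, siUBE2M and siURM1 cells. Each point is a gene, filled where called at an adjusted p under 0.05 (edgeR), and vertical bars are medians. Actins and tubulins (with ACTR2 and ACTR3) lie mostly right of 0 (medians 1.06, 0.67 and 0.56), as do TRiC subunits and cytosolic chaperones (with HSF1), while other clients centre near 0.

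Near-identical copies were examined because they can share fragments with the subunits. The table lists 13 pseudogenes named after them, of which 10 had at most 4 counts in any library and 5 had none. CCT6P1 had 196 to 300 counts, CCT6P3 54 to 125 and CCT8P1 14 to 31, beside at least 4092 for CCT6A and at least 3990 for CCT8. CCT3 and CCT4 overlap TSACC and COMMD1 on the opposite strand, with 0 shared exon bases in GENCODE v44.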

How the data were processed

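Messenger RNA of 11 HEK293T libraries was sequenced in 4 groups taken from the labels. Per the labels and the study's methods, the authors used fastp for trimming, HISAT2 2.0.5 for alignment to GRCh38 and featureCounts 1.5.0-p3 for counts per gene. They deposited these counts without normalization, and FPKM values computed from counts and gene length by the authors, which were used as deposited to compare levels between subunits. The libraries were strand-specific, but the strand setting of the counting is not given in the sources used here. Fold changes come from the counts and depend on the scaling of libraries.

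Counts were analysed with edgeR 4.0.16 in R 4.3.3 (filterByExpr, TMM, 1 quasi-likelihood fit of 4 groups, Benjamini-Hochberg adjustment over 18368 genes). CPM was scaled by TMM. The study's DESeq2 was an alternative (1.42.0), as were RLE size factors, total counts only, no filter, 2 groups per fit, a replicate block, limma 3.58.1 on log2(FPKM + 1) and log2(FPKM + 0.1), the fold threshold, and leaving out each library. The siURM1 group has 2 libraries, so the fit with 1 of them assumes that it varies like the other groups. On simulated counts of siNAE1 against control, 187 of 200 changed genes were recovered with 12 false calls among 18368. Changes in as large a share of genes as was called in the data were not simulated. Nor were changes as small as those of some subunits. Promoter windows are from RefSeq and exon overlaps from GENCODE v44. Tables used pandas 2.3.3 and plots matplotlib 3.10.9 (Python 3.11.15).

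The members and lists were chosen with earlier results of these data known. The text names the 8 subunits, the targeted genes, the 5 most similar genes, and examples among the 3 largest changes of each list in each knockdown. A gene that this rule names for 1 knockdown may be given in the others too. The cell markers with COL1A1, overlapping genes and pseudogenes were named as checks.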

Additional observations from a re-analysis of the deposited data

Results flagged for a closer look

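The 8 subunits were tested in each of 3 comparisons between knockdowns, and 14 of these tests were called, each by edgeR's quasi-likelihood test of one knockdown against another with Benjamini-Hochberg adjustment. Higher in siNAE1 than in siUBE2M cells, as were 22.7% of all tested genes, were TCP1 (log2 difference 0.425), CCT7 (0.414), CCT5 (0.414), CCT2 (0.276), CCT3 (0.243) and CCT6A (0.188), with adjusted p-values from 2.6e-07 (TCP1) to 0.0087 (CCT6A, edgeR). The call of CCT6A was lost without siNAE1 replicate 2 (0.149, adjusted p = 0.069) or siUBE2M replicate 2 (0.155, adjusted p = 0.066, edgeR).

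Higher in siNAE1 than in siURM1 cells, as were 19.5% of all tested genes, were TCP1 (0.489), CCT5 (0.397), CCT2 (0.316), CCT7 (0.26), CCT6A (0.257), CCT4 (0.24) and CCT8 (0.202), with adjusted p-values from 2.8e-07 (TCP1) to 0.021 (CCT8, edgeR). The call of CCT4 was lost without siURM1 replicate 1 (0.196, adjusted p = 0.097), and that of CCT8 without siNAE1 replicate 2 (0.158, adjusted p = 0.11) or without siURM1 replicate 1 (0.169, adjusted p = 0.17) or 2 (0.23, adjusted p = 0.051, edgeR). CCT8 was also higher in siUBE2M than in siURM1 cells (0.297, adjusted p = 0.0011, edgeR), beside 16.7% of all tested genes. The siRNA doses differed between these groups, and their part in the differences was not tested.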

How the results depend on the processing

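Over 912 alternative values for single subunits, 887 kept their direction and their side of the threshold, 10 lost the call, 11 gained one and 4 changed sign, all 4 small and not called. RLE size factors, no filter and 2 groups per fit changed no call. Scaling by total counts only, which moves the median of all genes to -0.13 (siNAE1), -0.05 (siUBE2M) and -0.11 (siURM1), gave subunit medians of 0.581 in siNAE1 and 0.192 in siURM1 against control and 0.192 between siNAE1 and siUBE2M. It turned CCT2 (-0.055) and CCT7 (-0.029) in siURM1 and CCT5 between siUBE2M and siURM1 (0.015), and the count of that comparison went from 1 to 2, adding CCT4. DESeq2 called 2 there, adding CCT3. A fold threshold of 1 left 0, 1 and 0 subunits against control (siNAE1, siUBE2M, siURM1) and 0, 0 and 0 between knockdowns.

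Leaving out each library gave 8 to 8, 6 to 7 and 6 to 6 called subunits against control and 5 to 6, 5 to 7 and 1 to 3 between knockdowns (siNAE1 and siUBE2M, siNAE1 and siURM1, siUBE2M and siURM1). The added call against control was CCT7, lower in siUBE2M cells without siUBE2M replicate 3. The siURM1 median ranged from 0.266 to 0.31, and CCT5 between siUBE2M and siURM1 from -0.051 to 0.019, with the sign changed without siUBE2M replicate 2. Replicate numbers did not pair the libraries (correlations of deviations from -0.066 to 0.079 in 15 same-numbered pairs, -0.101 to 0.073 in 30 others). With the replicate number as a block, 3 subunits were called between siUBE2M and siURM1, adding CCT3 (-0.165) and CCT7 (-0.177), and the block changed no other call. The causes of these changes were not tested beyond what each setting itself alters. The subunits had at least 3990 counts per library, and the siURM1 group rests on 2 libraries. The part of depth and of group size in the calls was not tested.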
